A study of Homo sapiens with 16 samples.

Results

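Secretory granules of endocrine cells are built and loaded by the granins and by the enzymes and membrane proteins that work beside them, and 10 such genes were followed here through every library of a compound screen in stem-cell-derived islets. They were the granins CHGA, CHGB, SCG2, SCG3 and SCG5, the granule membrane proteins PTPRN and PTPRN2, the prohormone convertases PCSK1 and PCSK2, and PCSK1N. The rule took every row of the count table whose gene name was 1 of these 10, out of 62754 genes in all. Of the 10, 9 had enough reads to be tested among 24515 tested genes, and SCG5 did not.

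The cultures came from HUES08, an established human embryonic stem cell line labelled wild type, which was grown flat and differentiated towards islets. Each received DMSO, the solvent, or 1 of 7 compounds on top of the medium, from stage 5 until 7 days into stage 6. The compounds were colchicine (10 nM), Ly-294002 (120 nM), vardenafil (125 nM), rimonabant (125 nM), epirizole (2.5 uM), moxifloxacin (1.1 uM) and rottlerin (1.23 uM). A computational tool, DBSOMA, had picked them as possible modulators of beta-cell maturation, and each comparison with DMSO asks whether the granule genes moved. Total RNA of whole cultures was sequenced in bulk, with 2 libraries for each of 8 treatments. Whether the 2 were differentiated separately is not stated in the labels, and the p-values cover only how far these particular libraries vary, part of which may be technical.

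Granins are acidic proteins that aggregate in the trans-Golgi network and help to form the dense core of the granule, and several are cut into peptides. Inside the maturing granule, PCSK1 and PCSK2 cut prohormones such as proinsulin and proglucagon, PCSK1N (proSAAS) inhibits PCSK1, and SCG5 (7B2) is the chaperone that PCSK2 needs to become active. PTPRN (IA-2) and PTPRN2 (phogrin) span the granule membrane and belong to the receptor tyrosine phosphatase family, although they lack the usual catalytic activity.

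Promoter sequence is shown for CHGA and PCSK1, whose levels ran together over these libraries (r = 0.92), and for PCSK2, which did not follow CHGA (r = −0.29). Sequences are RefSeq, GRCh38.p14, written on the strand of the gene, and 7 of the 10 members had a window. Capitals mark TGACG, the core of the cAMP response element, on either strand, and TGACGTCA is its full palindrome.

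CHGA, chr14:92923085-92923114, plus strand: ggcggcaccgcTGACGTCAtttccggggtc

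PCSK1, chr5:96433281-96433498, minus strand: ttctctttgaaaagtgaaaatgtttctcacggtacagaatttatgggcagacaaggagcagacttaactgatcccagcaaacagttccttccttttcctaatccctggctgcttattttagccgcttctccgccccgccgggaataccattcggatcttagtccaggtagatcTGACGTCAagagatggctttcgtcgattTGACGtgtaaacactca

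PCSK2, chr20:17225857-17226106, plus strand: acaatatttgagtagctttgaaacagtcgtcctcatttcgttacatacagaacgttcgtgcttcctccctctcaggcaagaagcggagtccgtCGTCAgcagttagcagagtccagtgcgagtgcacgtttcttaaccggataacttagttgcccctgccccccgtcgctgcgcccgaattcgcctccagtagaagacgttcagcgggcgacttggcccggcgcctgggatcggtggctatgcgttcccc

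The full TGACGTCA lay 54 to 47 bases before the RefSeq start of CHGA and 77 to 70 bases before that of PCSK1. Over 35116 windows of 250 bases before a RefSeq start, 1.65% held TGACGTCA and 21.2% held TGACG on either strand. The PCSK2 stretch held the 5-base core once, on the reverse strand. PCSK1 and PCSK2 each had a second window, at another RefSeq start, which held the core once on the reverse strand for PCSK2 (96 to 92 bases before that start) and no match for PCSK1. The 5-base core, but not the full palindrome, also occurred in the windows of SCG5 and PTPRN (PTPRN had r = 0.95 with CHGA). PTPRN too had a second window, which held no match. The windows of SCG3, which ran with CHGA as well (r = 0.96), and of PCSK1N held no TGACG. Whether the motif goes with likeness to CHGA was not tested. TCAGCACC, a stretch of the site bound by the neuronal gene repressor REST, was in 1.32% of all windows and, among the members, in the first window of PTPRN. These matches describe letters in a window and not binding.

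By its median, CHGA was the most abundant member. In plain CPM, PCSK2 exceeded it in Rottlerin 2 (48.4 against 31.6) and in Ly-294002 1 (39.4 against 35.1). Per kilobase of exon, its median over the 16 libraries was 30.8 CPM (a gene's read count relative to its library total), followed by PCSK1N at 8.39, SCG2 at 6.92 and PCSK2 at 4.76 CPM per kb. PTPRN2 (0.862), CHGB (0.663), SCG3 (0.628), PTPRN (0.369) and PCSK1 (0.343 CPM per kb) followed, and SCG5 was last at 0.0737. The ranges over libraries of every pair of neighbours in this order overlapped. All 10 members together took 0.00936% to 0.0468% of the reads of a library, and CHGA made up 28.9% to 67.4% of those.

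Library totals ran from 23294377 to 30701868 reads, and 3 reads, taken as the limit of detection, equal 0.0977 to 0.129 CPM, for counting error only. All libraries carried 1 batch label. Hormone transcripts that define islet cells were low: insulin (INS) lay at 0.643 to 6.37 CPM, glucagon (GCG) at 1.11 to 9.97, somatostatin (SST) at 1.08 to 27.7, and the amyloid peptide IAPP had at most 1 read. In bulk RNA, fewer endocrine cells and less granule RNA per cell cannot be told apart.

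Among the granins, chromogranin A (CHGA, ENSG00000100604; GRCh38 chromosome 14, 92923080 to 92935293, plus strand, protein coding) differed widely inside each treatment. The DMSO libraries had 168 and 88.9 CPM, the colchicine libraries 168 and 39.4, the epirizole libraries 269 and 42.2, and the Ly-294002 libraries 35.1 and 102 CPM. Moxifloxacin gave 52.4 and 315 CPM, rottlerin 227 and 31.6, vardenafil 46.9 and 205, and rimonabant 62.9 and 163 CPM. Every treatment thus held 1 high and 1 low library, and no treatment was separate from DMSO. Library 1 was the higher in 4 treatments and library 2 in the other 4.

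The other well-measured granins followed the same libraries. Chromogranin B (CHGB, chromosome 20, 5911430 to 5925361, plus strand) ran from 0.749 to 8.31 CPM, with 6.01 and 2.8 in DMSO. Secretogranin II (SCG2, chromosome 2, 223596940 to 223602503, minus strand), the precursor of secretoneurin, ran from 7.78 to 60.3 CPM, with 40.3 and 17.8 in DMSO. Secretogranin III (SCG3, chromosome 15, 51681353 to 51721031, plus strand), which binds CHGA and cholesterol-rich granule membrane, ran from 0.686 to 6.42 CPM, with 4.29 and 2.08 in DMSO. All were higher in the library with the higher CHGA in 8 of 8 treatments, a pattern shown by 2.41% of tested genes.

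SCG5 (chromosome 15, 32641676 to 32697098, plus strand), the PCSK2 chaperone, stood near the detection limit with 1 to 10 reads, or 0.0327 to 0.353 CPM. PCSK2, its partner, had 16.7 to 48.4 CPM in the same libraries. In RefSeq, SCG5 (32641710 to 32697092) lies inside the readthrough gene ARHGAP11A-SCG5 (32615476 to 32697098), which had 0 to 2 reads. How reads shared by both genes were counted is not given in the sources used here, so a low SCG5 level cannot be told apart from reads left uncounted, and no ratio of SCG5 to PCSK2 is given.

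Both granule membrane proteins behaved like the granins. PTPRN (chromosome 2, 219289623 to 219309648, minus strand) ran from 1.07 CPM in Colchicine 2 to 12.1 CPM in Moxifloxacin 2, and PTPRN2 (chromosome 7, 157539056 to 158587788, minus strand) from 2.27 in Vardenafil 1 to 12 CPM in Moxifloxacin 2. Their proportion was steadier than their level, with a PTPRN to PTPRN2 ratio of 0.44 to 1.04 over libraries. Host-gene reads include any from MIR153-1 and MIR153-2, microRNA genes inside PTPRN and PTPRN2, and the strand setting of the counting is not given, so reads from opposite-strand neighbours of PTPRN, PTPRN2, SCG3, SCG5, PCSK1 and PCSK2 cannot be told apart.

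The convertases parted ways. PCSK1 (chromosome 5, 96390415 to 96434143, minus strand) had 3.52 and 0.945 CPM in DMSO, 4.75 and 1.59 in colchicine, 6.22 and 1.3 in epirizole, and 0.456 and 2.05 in Ly-294002. It had 1.17 and 6.9 CPM in moxifloxacin, 4.03 and 0.817 in rottlerin, 1.19 and 5.52 in vardenafil, and 1.09 and 2.7 in rimonabant. In each treatment its higher library was that of CHGA.

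PCSK2 (chromosome 20, 17226107 to 17484578, plus strand) had 32.2 and 23.9 CPM in DMSO, 29.6 and 23.9 in colchicine, 31.7 and 40.5 in epirizole, and 39.4 and 36.5 in Ly-294002. It had 36.8 and 35.9 CPM in moxifloxacin, 29 and 48.4 in rottlerin, 25.2 and 35.2 in vardenafil, and 43.5 and 16.7 in rimonabant. Its higher library matched that of CHGA in 3 of 8 treatments, and its highest value fell in Rottlerin 2, where CHGA was lowest.

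PCSK1N (chromosome X, 48831094 to 48835633, minus strand) had 7.17 and 5.94 CPM in DMSO, 15.5 and 11.3 in colchicine, 14.5 and 7.97 in epirizole, and 8.01 and 11.5 in Ly-294002. It had 8.32 and 16.8 CPM in moxifloxacin, 12.8 and 12.6 in rottlerin, 7.84 and 7.99 in vardenafil, and 14.4 and 20.1 in rimonabant. Its 2 lowest libraries were the DMSO libraries. Within treatments it was higher in the library with the higher CHGA in 8 of 8 cases in plain CPM, by a median of 1.39-fold. With TMM-normalised CPM (libraries rescaled by their bulk of genes) this held in 7 of 8, since the rottlerin libraries differed by 1.02-fold and changed order.

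**Figure D1:**
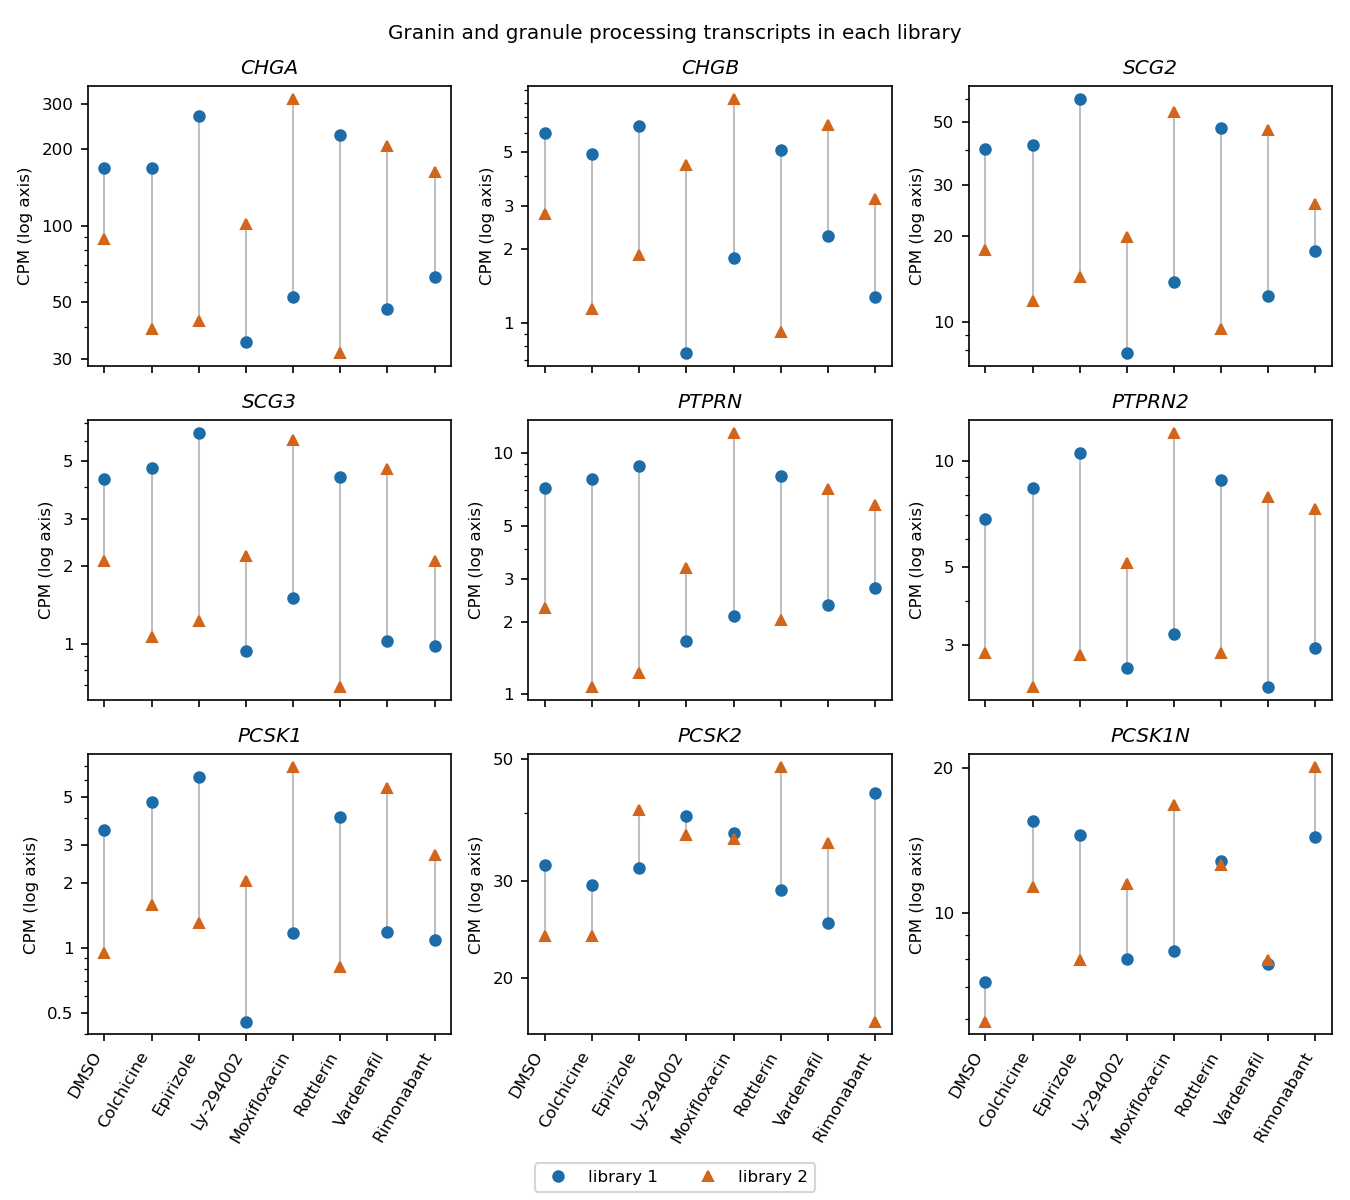
Level of the 9 tested members in each of 16 libraries, in CPM on log axes, by treatment; circles are library 1, triangles library 2, and a grey line joins the 2 libraries of a treatment. CHGA, CHGB, SCG2, SCG3, PTPRN, PTPRN2 and PCSK1 are high and low in the same libraries, while PCSK2 and PCSK1N vary less.

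Spread inside a treatment was large for 7 of the 9 tested members. For CHGA the higher library exceeded the lower by a median of 4.32-fold over the 8 treatments, least in DMSO (1.89-fold) and most in rottlerin (7.2-fold). Median folds were 3.86 for CHGB, 3.67 for SCG2, 4.19 for SCG3, 3.55 for PTPRN, 3.3 for PTPRN2 and 4.56 for PCSK1, but 1.31 for PCSK2. The within-treatment standard deviation of log2 CPM was 1.109 to 1.476 for the 7 widely varying members, above that of at least 99.1% of tested genes, whose median was 0.268. For PCSK2 it was 0.466 (percentile 72.9) and for PCSK1N 0.382 (percentile 64.1).

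Against DMSO, PCSK1N with rimonabant was the 1 call among 9 members and 7 compounds. It rose from 6.652 ± 0.8879 to 16.82 ± 3.448 TMM-normalised CPM (SD, n = 2 each), which is 1.34 on the log2 scale (SE 0.33, 95% interval 0.62 to 2.06, adjusted p = 0.0327 by edgeR), with both rimonabant libraries above both DMSO libraries. In the same comparison 7.8% of all tested genes were called, so 1 of 9 members is near that background. The PCSK1N change was of similar size without DMSO 1 (1.48), DMSO 2 (1.21), Rimonabant 1 (1.54) or Rimonabant 2 (1.11). Each of these fits left 1 library in a group. The call was lost in all but the fit without Rimonabant 1, a loss not particular to PCSK1N among the genes called with rimonabant. With an adjustment for GC content it was lost with a smaller change (0.70).

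With the other compounds 0 of 9 members were called by edgeR. The share of all tested genes called was 0.196% for colchicine, 0.00816% for rottlerin and 0% for epirizole, Ly-294002, moxifloxacin and vardenafil. An unadjusted p under 0.05 by edgeR was reached by 1 member each with colchicine, epirizole, moxifloxacin and rottlerin (PCSK1N in each). With Ly-294002 and vardenafil 0 members reached it. Of all 24515 tested genes, 4297 reached it with colchicine, 1289 with epirizole, 2908 with moxifloxacin and 3623 with rottlerin. The counts were 1150 with Ly-294002 and 1280 with vardenafil. DESeq2 called PCSK1N with colchicine (5.98% of the genes it tested) and with rimonabant (20.9%), and 0 members with moxifloxacin (0.347%), rottlerin (4.82%), vardenafil (0.00816%), epirizole and Ly-294002 (0% each). It gave no adjusted p for SCG3 and PCSK1 with rottlerin and rimonabant. A joint test of all 7 compounds called 0 members, with an adjusted p of 0.328 for PCSK1N by edgeR, and 0.00408% of all tested genes. In DESeq2 that test called PCSK1N and 7% of genes.

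For the granins the intervals were too wide to exclude large changes. The log2 change of CHGA was −0.32 with colchicine, 0.24 with epirizole, −0.93 with Ly-294002, 0.48 with moxifloxacin, −0.03 with rottlerin, −0.04 with vardenafil and −0.25 with rimonabant. Its 95% interval for moxifloxacin ran from −2.69 to 3.64, and adjusted p-values for CHGA ran from 0.921 to 1 by edgeR. The median log2 change of the 9 members ran from −0.87 with Ly-294002 to 0.48 with moxifloxacin, against −0.01 to 0 for all tested genes. PCSK2 was measured more closely, with changes of −0.08 to 0.47 and an SE of 0.43, and a 95% interval of −0.49 to 1.43 with rottlerin, its largest estimate.

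**Figure D2:**
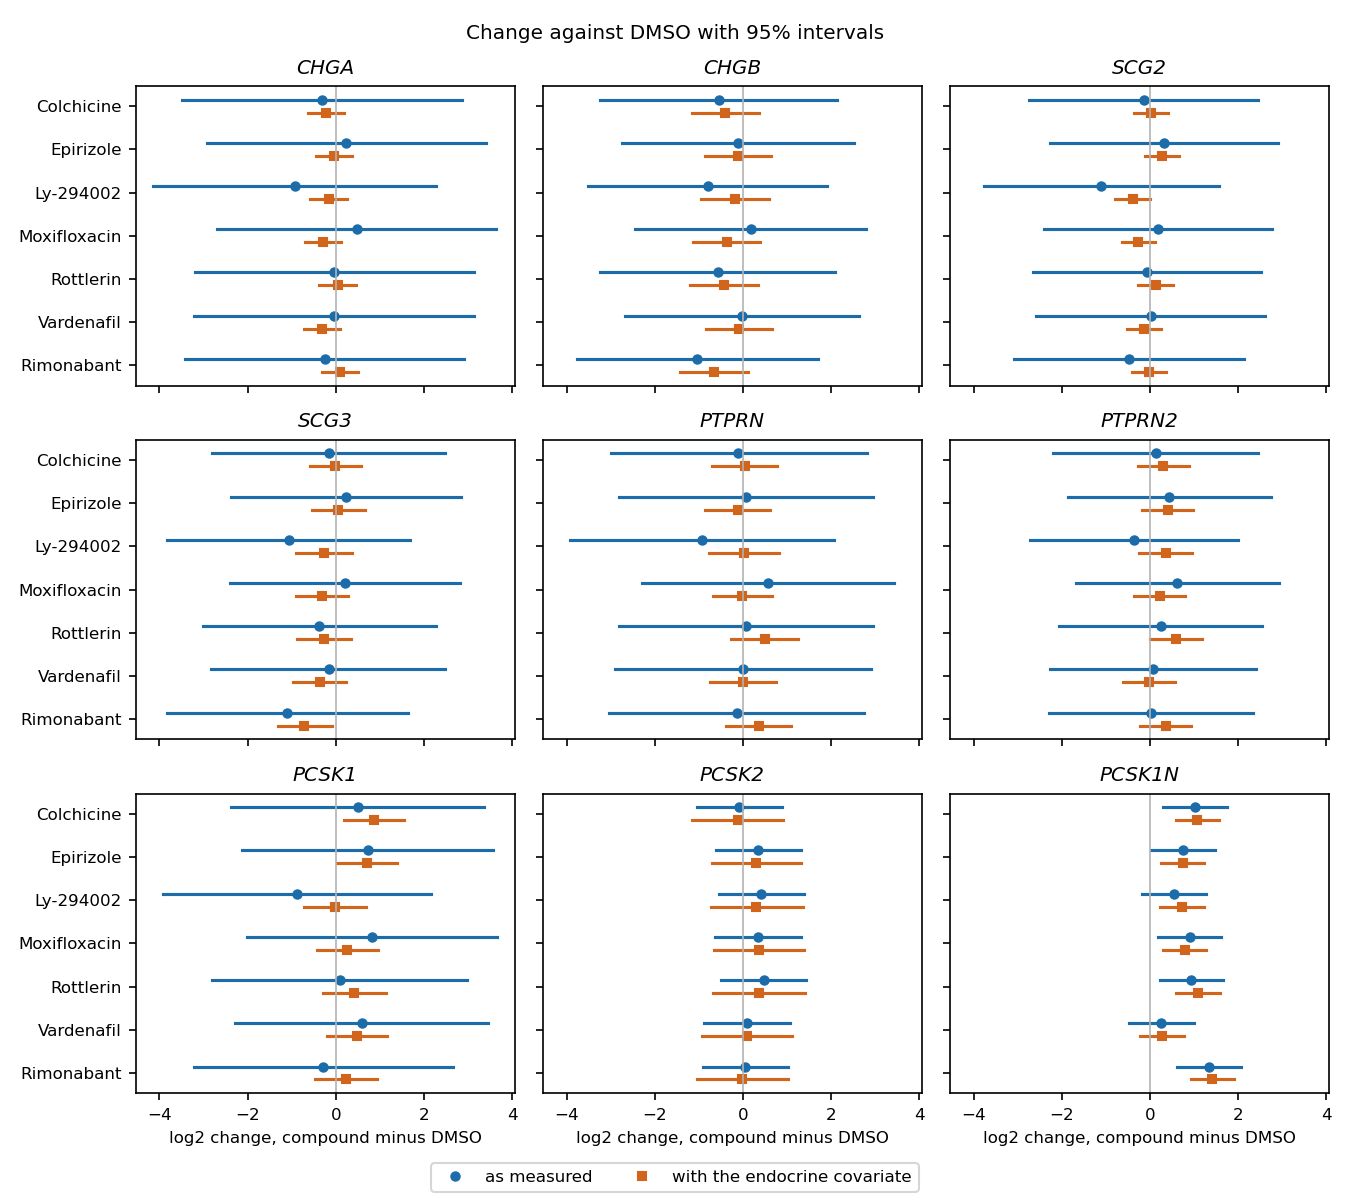
Log2 change against DMSO (x axis) of the 9 tested members for each compound (y axis), with 95% intervals from edgeR; blue circles are the changes as measured, orange squares those from a fit that also holds the level of 8 endocrine transcription factors. Intervals of CHGA shrink with that covariate, from −2.69 to 3.64 to between −0.7 and 0.12 with moxifloxacin, while those of PCSK2 do not.

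Both treated libraries lay outside the DMSO libraries for 1 of 9 members with colchicine (50.3% of all tested genes did so), epirizole (38.0%), rottlerin (47.9%) and vardenafil (39.3%), in each case PCSK1N. With Ly-294002 (39.0%) and moxifloxacin (47.6%) PCSK1N and PCSK2 were both higher, and with rimonabant (53.2%) PCSK1N was higher and SCG3 lower. These shares of members are below those of all genes.

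PCSK1N lay above both DMSO libraries in all 14 treated libraries, as did 3.54% of tested genes. The 7 comparisons share these DMSO libraries, so they are not independent of each other. Its log2 change was 1.02 with colchicine (adjusted p = 0.138 by edgeR), 0.94 with rottlerin, 0.91 with moxifloxacin, 0.75 with epirizole, 0.55 with Ly-294002 and 0.26 with vardenafil.

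The level of PCSK1N went with a GC trend of the libraries. The PCSK1N transcript is 74.5% G and C, against 41.9% to 62.4% for the other 9 members. Each library has a GC slope, here the log2 difference in level between the genes of highest and lowest GC after subtracting each gene's mean, and the DMSO libraries had the 2 lowest slopes (−0.389 and −0.462) while Rimonabant 2 had the highest (0.914). Over the 16 libraries log2 PCSK1N correlated with the slope at r = 0.81 (Spearman rho 0.83), a description over libraries that share a batch. With the GC trend of each library taken out, PCSK1N had 8.6 and 7.34 CPM in DMSO and 13.3 and 12.7 in rimonabant, and 11 of the 14 treated libraries lay above both DMSO libraries. Its change was then 0.70 with rimonabant (adjusted p = 0.47 by edgeR), and 0 members and 0 genes were called in that comparison. Because the DMSO libraries had the lowest slopes, a compound effect on PCSK1N and a GC difference between libraries cannot be told apart. The adjustment can remove either.

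**Figure D3:**
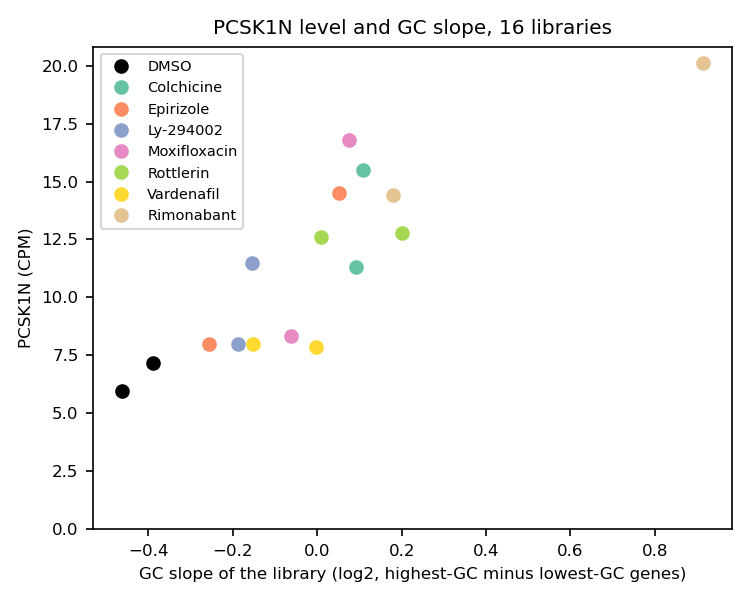
PCSK1N level (y axis, CPM from 0) against the GC slope of the library (x axis, log2), 1 point per library coloured by treatment. The DMSO libraries are lowest on both axes and Rimonabant 2, at 20.1 CPM and a slope of 0.914, is highest on both.

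The level of endocrine transcription factors separated the high from the low libraries. These were INSM1, NEUROD1, NKX2-2, PAX6, ISL1, RFX6, MYT1 and ST18, and their mean log2 CPM ran from 0.668 in Rottlerin 2 to 3.411 in Moxifloxacin 2, the libraries with the lowest and highest CHGA. Added to the fit as a covariate, this mean had a slope past the threshold for 7 of 9 members, all upward (1.54% of tested genes had such an upward slope). CHGA rose by 1.32 log2 units per log2 unit of the factors (SE 0.06, adjusted p = 2e-06 by edgeR), PCSK1 by 1.26, PTPRN by 1.24, SCG3 by 1.19, CHGB by 1.14, SCG2 by 1.08 and PTPRN2 by 0.98. PCSK2 had a slope of −0.13 (SE 0.14, adjusted p = 0.721) and PCSK1N of 0.27 (SE 0.07, adjusted p = 0.0581). The test of this slope was chosen after the values were seen, and members and lists were picked with earlier results of these data known. Its p-values thus describe these libraries and are no independent support.

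**Figure D4:**
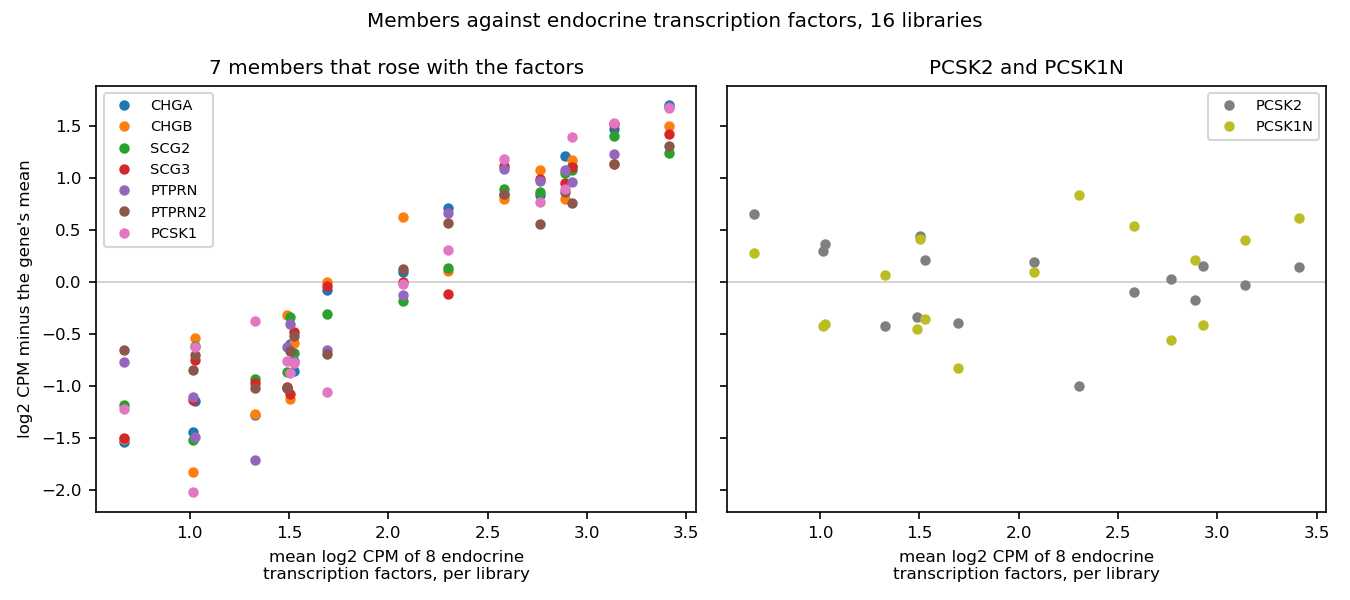
Log2 CPM of each member minus its own mean (y axis) against the mean log2 CPM of 8 endocrine transcription factors (x axis), 1 point per library and gene. The 7 members on the left rise along the axis with slopes of 0.98 to 1.32 in the fit, and PCSK2 and PCSK1N on the right have slopes of −0.13 and 0.27.

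With these factors in the fit, the standard errors of the granin changes fell. The factor mean ran with CHGA at r = 0.98 and came from the same treated libraries, so this fall was built in. The estimates are changes relative to the factors and not closer measurements of the granins. The SE of the CHGA change fell to 0.19, and its estimates lay between −0.31 with vardenafil and 0.10 with rimonabant, none past the threshold. PCSK1N was called with colchicine (1.08, adjusted p = 0.0137 by edgeR), rottlerin (1.10, adjusted p = 0.0234) and rimonabant (1.42, adjusted p = 0.00263), and in the joint test (adjusted p = 0.0294). In those comparisons 6.41%, 3.77%, 14.8% and 3.15% of all tested genes were called. With the covariate and the GC adjustment together 0 members were called, and PCSK1N changed by 0.73 (adjusted p = 0.0866), 0.71 (adjusted p = 0.159) and 0.77 (adjusted p = 0.146). In that fit 3.1%, 0.51% and 0.212% of all tested genes were called with colchicine, rottlerin and rimonabant, and 0.742% in the joint test. With the covariate alone, estimates closest to the threshold among the other members were PCSK1 with colchicine at 0.86 (adjusted p = 0.122) and SCG3 with rimonabant at −0.71 (adjusted p = 0.117). Whether a compound changes the factors themselves cannot be told apart from other sources of their spread in this fit.

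The ratio of the convertase transcripts varied widely between libraries. PCSK1 over PCSK2, in CPM, ran from 0.0116 in Ly-294002 1 to 0.196 in Epirizole 1, with a median of 0.0613, and the libraries of 1 treatment differed by a median of 5.43-fold. DMSO alone had 0.109 and 0.0396. The PCSK1N to PCSK1 ratio ran from 1.45 to 17.6 (median 6.2), whereas the CHGA to CHGB ratio stayed within 20.7 to 50.7 and differed by a median of 1.31-fold within treatments. Rimonabant had the 2 highest CHGA to CHGB ratios, 49.5 and 50.7, but Ly-294002 1 stood close at 46.9 and Ly-294002 2 at 23. In Rimonabant 1 CHGB was at 1.27 CPM. CHGA is 62.4% G and C and CHGB 52.3%, and a part of GC content in this ratio was not tested.

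**Figure D5:**
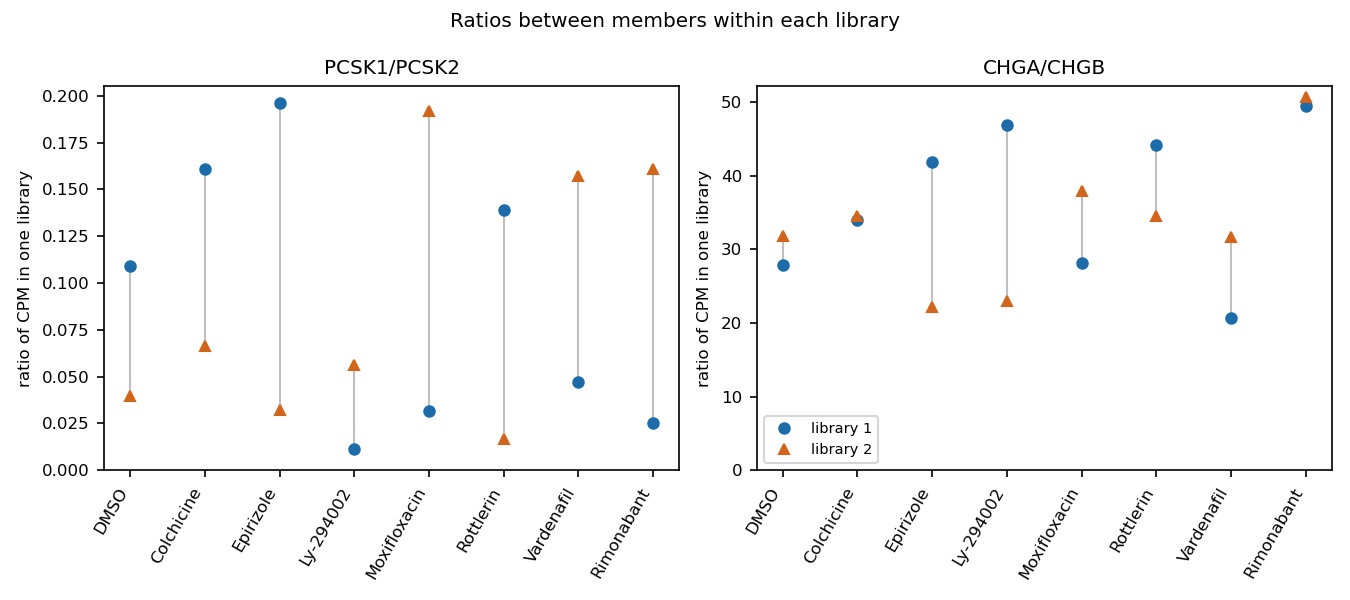
Ratio of PCSK1 to PCSK2 (left) and of CHGA to CHGB (right) in CPM, on axes from 0, by treatment; circles are library 1, triangles library 2. The convertase ratio spans 0.0116 to 0.196 with the 2 libraries of each treatment apart, and the chromogranin ratio spans 20.7 to 50.7.

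Correlations over the 16 libraries describe how tightly the members ran together, with no test, since the libraries share batch and the same DMSO-to-compound layout. With CHGA, SCG2 had r = 0.97, SCG3 and PTPRN2 0.96, PTPRN 0.95, CHGB 0.94 and PCSK1 0.92, and all 21 pairs among these 7 genes lay between 0.87 and 0.97. Leaving out Moxifloxacin 2 and Rottlerin 2, the libraries farthest from the median of CHGA, gave 0.90 to 0.97 for the same 6 genes. An r of at least 0.9 with CHGA was found for 0.233% of tested genes. PCSK2 had r = −0.29 and PCSK1N 0.37, or 0.78 for PCSK1N after subtracting the mean of each treatment.

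Of other genes with a mean of at least 1 CPM, those most like CHGA included INSM1 and CACNA1A (r = 0.98 each), and CALB2, ABCC8, SEZ6L, UNC13A, UNC80 and PAX6 (r = 0.96 each). INSM1 is a neuroendocrine transcription factor, CACNA1A is a calcium channel subunit, ABCC8 is the sulfonylurea receptor and UNC13A primes vesicles for release. The 5 least like it were CHST15 (−0.87), POLE4 (−0.85), SLC16A1-AS1 and the fibrillar collagen COL5A2 (−0.84 each) and COA7 (−0.83).

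Correlations with CHGA were spread widely in the rest of the granule machinery. Of 16 tested cargo and processing genes outside the members, 1 had r over 0.9, the oxidoreductase ERO1B at 0.92, and the median was 0.07. The carboxypeptidase CPE (62 to 121 CPM, r = 0.67) and the amidating enzyme PAM (207 to 300 CPM, r = −0.22) were abundant in every library. Of 24 docking and exocytosis genes 1 had r over 0.9, UNC13A, with a list median of 0.51, and 11 biogenesis and sorting genes had a median of 0.05. The transcription factors had 6 of 8 over 0.9 and a median of 0.93, with RFX6 at −0.25. REST, which represses many granin genes in non-neural cells, lay at 181 to 248 CPM (r = −0.40).

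In tests against DMSO, 0 genes of these lists were called with any compound but rimonabant, where 7.8% of all tested genes were. There, 1 of 16 cargo genes rose, the convertase PCSK5 (0.27, adjusted p = 0.0396 by edgeR), with a list median of −0.17. In docking and exocytosis 1 of 24 fell, the synaptotagmin SYT4 (−1.72, adjusted p = 0.0364), with a list median of 0. In biogenesis and sorting 3 of 11 rose (VPS51 at 0.84, HID1 at 0.68 and PICK1 at 0.45) and CCDC186 fell (−0.50), with a median of 0.17. The median of all tested genes was 0, and with the GC adjustment 0 genes were called with rimonabant.

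Markers of other cells that express granins moved with CHGA as well. Summed over each list, islet hormones (3.92 to 46.5 CPM), enterochromaffin markers (14 to 35.6), other enteroendocrine markers (10.4 to 63.2) and neuron and neural crest markers (50.8 to 137 CPM) were each higher in the library with the higher CHGA in 8 of 8 treatments. Single genes carried much of some sums. Among other enteroendocrine markers NTS had a mean of 30 CPM against 1.35 for PYY, and among enterochromaffin markers DDC had 12.4 against 4.9 for ADRA2A. Positive correlations with CHGA were found for 5 of 5, 5 of 5, 4 of 4 and 8 of 9 tested genes of these lists. The share of all tested genes with a positive correlation was not computed. Markers of these lists with too few reads to be tested were IAPP and INSL5 (at most 1 read each), SOX10 (at most 6), GIP (at most 7), GAST and LMX1A (at most 9 each) and CCK (at most 11). Of the other lists, duct, acinar, and liver and gut markers were higher in that library in 6 of 8 treatments each, endothelial markers in 5 of 8 and mesenchyme markers (745 to 1970 CPM) in 2 of 8. The docking and exocytosis genes were also higher there in 8 of 8, with 21 of 24 positive correlations. The sums of biogenesis and sorting genes and of the endocrine transcription factors were higher there in 7 of 8 each. The pattern was thus not particular to these cell markers. The part of these cell types in the granin levels was not tested.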

How the data were processed

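Per the labels' protocols, ribosomal RNA was depleted, libraries were made with the KAPA RNA HyperPrep kit, and reads were trimmed with Trimmomatic 0.38 and aligned with STAR 2.7.1a. For counting, these protocols give featureCounts 1.6.0 or HTSeq. HTSeq and the GRCh38 genome are also in the submitters' processing notes. Annotation release and strand setting are not given in the sources used here. The deposited values were raw counts per gene, not normalised by the authors, for 62754 genes in 16 libraries.

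The test was that of edgeR 4.0.16 (R 4.3.3): filterByExpr (minimum count 10, 24515 genes kept), TMM scaling, and 1 quasi-likelihood fit with robust moderation of all 16 libraries with 8 residual degrees of freedom. Tests against DMSO were two-sided with Benjamini-Hochberg adjustment over all tested genes at 0.05. Log2 CPM used a prior count of 2. Coordinates, exon lengths and GC come from GENCODE 29. The GC adjustment used 20 GC bins per library and 95.26% of tested genes. For genes beyond the median GC of the outermost bins, the trend was held at its value there. DESeq2 1.42.0 and other alternatives are given in the closing section, and the scripts were tested on simulated data. Members are described in full. Others are named by their likeness to CHGA, their place in a list, or a call in a list. Some genes that this rule names are not reported here. Members and lists were chosen with earlier results of these data known.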

Additional observations from a re-analysis of the deposited data

How the results depend on the processing

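The rimonabant call of PCSK1N gave 1 member in the main fit. It was 0 with the replicate number as a block (replicate block, with a log2 change of 1.33 against 1.34, adjusted p = 0.0517 by edgeR), 0 with the GC offset, 0 with the GC offset and the block, 0 with the GC offset and the endocrine covariate together (an alternative chosen after seeing the data) and 0 to 1 when 1 library was left out, being lost without DMSO 1, DMSO 2 or Rimonabant 2. The block rests on a shared number, and whether same-numbered libraries were paired is not known. In 5 of 28 pairs of treatments the library 1 minus library 2 differences correlated over 0.1 (−0.283 to 0.226), and such values cannot exclude pairing. The block changed no other call of a member. DESeq2 called 1 member with colchicine and 1 in the joint test. With no filter on low counts 1 was called with colchicine (PCSK1N; 3.51% of all genes), 2 with Ly-294002 (CHGA and SCG2; 0.378%), 2 with moxifloxacin (CHGA and PCSK1N; 1.66%), 1 with rottlerin (PCSK1N; 2.41%), 4 with rimonabant (CHGB, SCG2, SCG3 and PCSK1N; 6.01%) and 8 in the joint test (all but PTPRN2 and SCG5; 6.76%). In that fit CHGA with Ly-294002 had an adjusted p of 1.6e-11 by edgeR although its libraries overlapped those of DMSO, so whether its estimate of the spread suits the members is in doubt. With the endocrine covariate 1 was called with colchicine, 1 with rottlerin and 1 in the joint test. The cause of these differences was not tested.

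Changes that turned direction were below the threshold in both fits. With the endocrine covariate CHGA went to −0.04 (epirizole), −0.29 (moxifloxacin), 0.04 (rottlerin) and 0.10 (rimonabant), and PCSK2 to −0.01 (rimonabant). With the GC offset as well, CHGA was −0.20 (epirizole) and −0.50 (moxifloxacin). Leaving out 1 library, CHGA ran from −1.72 to 0.40 (colchicine), −1.59 to 1.04 (epirizole), −1.30 to 1.26 (moxifloxacin), −1.97 to 0.77 (rottlerin), −1.46 to 0.67 (vardenafil) and −1.05 to 0.28 (rimonabant). PCSK2 ran from −0.27 to 0.16 (colchicine), 0.00 to 0.84 (rottlerin), −0.16 to 0.33 (vardenafil) and −0.83 to 0.61 (rimonabant). The correlation of PCSK2 with CHGA ran from −0.41 to −0.16, and that of PCSK1N was 0.78 over deviations from treatment means. For the 6 other tested members, 426 of 542 alternative values with an adjusted p kept direction and call, 112 turned direction, none of these past the threshold, and 4 newly passed it.

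Over all genes, rimonabant calls went from 1913 to 2936 (DESeq2), 1090 (block), 0 (GC offset), 3631 (endocrine covariate), 52 (both) and 42 (its 2 groups alone). Colchicine calls went from 48 to 926 (DESeq2), 150 (RLE size factors), 1568 (no filter), 5 (block), 1 (GC offset), 1572 (endocrine covariate) and 134 (alone). Rottlerin calls went from 2 to 678 (DESeq2), 1076 (no filter) and 925 (endocrine covariate).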

Other observations

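PCSK2 did not share the pattern of the other convertase, and the genes whose log2 levels ran most closely with it over the 16 libraries were picked after the values were seen. Among genes with a mean of at least 1 CPM they were CREB5, a transcription factor of the CRE-binding family (r = 0.94, Spearman rho 0.92), SCAI (r = 0.92), F2R, the thrombin receptor (r = 0.90), and AFP, alpha-fetoprotein (r = 0.90, rho 0.73). Running opposite were CTBP2, a corepressor (r = −0.91), and GATA2 (r = −0.89). Without Rimonabant 2 and Rottlerin 2, the libraries with the lowest and highest PCSK2, the values were 0.87 for CREB5, 0.80 for SCAI, 0.78 for F2R, 0.76 for AFP, −0.82 for CTBP2 and −0.81 for GATA2. AFP was far more abundant than any granin, at 2690 to 6700 CPM. PCSK2 itself correlated with the GC slope of the library at r = −0.50 (rho −0.28). These are descriptions with no test, over libraries of 1 batch.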
